A study of Mus musculus with 16 samples.

Results

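The genes described here encode the proteins of the cytosolic ribosome. They were taken from the count table by their mouse symbol, as protein-coding genes named Rpl or Rps followed by a digit, or Rpsa, Rplp0, Rplp1 or Rplp2, and without the kinases named Rps6k, the Rps19bp gene and pseudogenes. Of 55450 rows, 85 matched, and 82 of these reached 10 counts in 4 or more of the 16 libraries, the limit for testing, which 19363 genes passed in all. The 82 comprised 50 proteins of the large subunit, whose symbols begin with Rpl, and 32 of the small subunit, whose symbols begin with Rps. The other 3, Rpl39l, Rps27rt and Rpl10l, never exceeded 12, 8 and 4 counts in any library. The rule itself reads no expression value other than this limit.

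A ribosome joins a small subunit, which reads the mRNA, to a large subunit, which links the amino acids, and each subunit consists of ribosomal RNA wrapped by proteins that are mostly present as a single copy. The mRNAs of these proteins belong to the most abundant of the cell, and nearly all of them begin with a C followed by an uninterrupted run of pyrimidines (C or T), the terminal oligopyrimidine or TOP motif, through which the kinase mTORC1 controls their translation. Neurons carry ribosomes in the soma and also in dendrites and axons, where local protein synthesis takes place. Apart from their place in the ribosome, some members have further roles, for instance in restraining the p53 inhibitor Mdm2.

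Striatal RNA of male mice aged 14 weeks on the C57Bl/6 background (C57BL/6J in the study's methods) was sequenced, with 1 library per mouse. The 8 R6/1 mice carried a transgene made of exon 1 of the human huntingtin gene with an expanded CAG repeat, driven by the human huntingtin promoter, and the 8 wild-type mice were their littermates. The study selected these mice by Z-scores of rotarod performance, feet clasping and body weight, from a larger number tested in several cohorts and litters. In each genotype, the 4 mice with the highest scores were named “good” and the 4 with the lowest “poor”. The mice between these extremes were left out. The study reports that some mice of the same litter tended to rank alike, and the labels give neither litter nor cohort. The labels “good” and “poor” thus describe behaviour and not a treatment. None of the mice was treated, and all had been housed in isolation before the tests. The comparisons ask whether ribosomal protein mRNAs differ between genotypes and, within a genotype, between mice of “good” and “poor” performance.

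The counts per library ranged from 16155356 to 24897354. All 15 markers of medium spiny neurons, the principal neurons of the striatum, were detected, and their summed level was 7338 to 11222 CPM (counts scaled to the same library total) in wild-type mice and 1867 to 4460 in R6/1 mice. Summed markers of astrocytes (6274 to 7458 against 3992 to 4811 CPM) and microglia (982 to 1211 against 759 to 951) were also lower in R6/1 mice without overlap between the genotypes, as were those of endothelial cells (624 to 720 against 544 to 607). In dissected tissue, fewer cells of a type and less RNA per cell cannot be told apart. Oligodendrocyte markers (10659 to 16315 against 7529 to 11714) and blood markers (189 to 445 against 83.2 to 209) were lower with overlap, with 7 of 12 and 5 of 5 genes called lower. Hypothalamic markers ranged from 6.13 to 9.87 CPM in R6/1 “good” and from 6.83 to 49.3 in R6/1 “poor” mice, with mice 1 and 3 the highest. The part of these cell populations in the values below was not tested. The column headers number the libraries from 1 to 16, and this number moves with several of the genes. All R6/1 “good” libraries lie in 1 to 8, as do the libraries of mouse 2 of the R6/1 “poor” group, mouse 1 of the wild-type “poor” group and mice 1 and 4 of the wild-type “good” group. The other 5 wild-type and 3 R6/1 “poor” libraries lie in 9 to 16.

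To show pyrimidine runs near the annotated start, 30-base stretches of the RefSeq start region (GRCm38.p6, 5′ to 3′ on the coding strand) are given. They cover the 6 members with the smallest p among those lower in all R6/1 mice, and Rpl7l1, which was higher. Capitals mark the longest run of C and T that lies in, or reaches into, the window between 30 bases before and 50 bases after the annotated start. Of the 82 members, 62 had such a region in the RefSeq table. Rpl3, the other member that was higher, is among the 20 that had none.
Rpsa, chr9:120127775-120127804, plus strand: ccggccgcccgTCCTTTCgcgctacccggg
Rps19, chr7:24884612-24884641, plus strand: cgcccgggaaaccccgtcgTTCCCTTTCCC
Rpl12, chr2:32961732-32961761, plus strand: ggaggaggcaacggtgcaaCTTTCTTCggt
Rps12, chr10:23787181-23787210, minus strand: caccgccggCCTTTTCCCCTgccgccgccg
Rpl13a, chr7:45128722-45128751, minus strand: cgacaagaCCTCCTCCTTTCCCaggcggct
Rpl13, chr8:123102324-123102353, plus strand: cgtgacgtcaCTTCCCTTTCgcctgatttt
Rpl7l1, chr17:46782670-46782699, minus strand: gtcgaggcgggCCTCTCTaccccgcccggt

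The longest run had 7 bases in Rpsa, 8 in Rpl12, 11 in Rps12, 14 in Rpl13a, 10 in Rpl13 and 7 in Rpl7l1. In Rps19 it had at least 11, since the table ends there. Rpl7l1 and Rpsa thus had runs of the same length, short of the 8 bases counted below. With the annotated start as base 1, the runs began at base 21 in Rpsa, 40 in Rps19 and Rpl12, 9 in Rps12 and 3 in Rpl13a. They began before the start in Rpl13 (-16) and Rpl7l1 (-32). None of these runs began at the annotated start itself, so they are not shown as TOP motifs. Counting only bases inside the window, a run of at least 8 bases was present in 47 of the 62 members (75.8%) and in 7809 of 27025 genes of the table (28.9%). Of the 22 members with a region that were lower in all R6/1 mice, 19 held such a run. The annotated start itself was a C followed by at least 4 pyrimidines in 12 of 62 members (19.4%) and in 2.49% of all genes. Between 250 bases before and 50 bases after the start, searched on both strands, CCGGAAG, the core of sites for ETS factors, occurred in 24 of 62 members (38.7%, against 9.12% of all genes). CTCTTTCC was found in 9 (14.5%, against 3.04%), and AAGATGGC, the core of YY1 sites, in 5 (8.06%, against 2.88%). The TATA box sequence TATAAA occurred in 6 (9.68%, against 14.2%). These matches describe the sequence only.

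Ribosomal protein mRNAs made up 1.71% to 1.91% of all counts in every mouse. Per kilobase of transcript, the highest levels were those of Rps29 (787 CPM per kilobase), Rps15 (724) and the stalk protein Rplp1 (706). The lowest were those of Rpl3l (0.393), a paralog of Rpl3 known from skeletal and cardiac muscle, Rpl36al (0.515) and Rpl24 (3.85). For Rpl24, Rps10, Rpl13a and Rpl36al, the GENCODE M21 annotation holds a read-through gene model on the same strand that covers 71.5%, 53.6%, 59.3% and 26.0% of the transcript. Reads in such a stretch cannot be assigned to 1 gene with certainty, so the counts of these 4 members are uncertain.

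Compared with the 8 wild-type mice, the 8 R6/1 mice had lower levels of 27 of the 82 members and higher levels of 2 at an adjusted p under 0.05 (edgeR quasi-likelihood test). This is 32.9% of the members for the lower direction, beside 17.0% of all 19363 tested genes, and 2.44% for the higher direction, beside 17.2%. In either direction it is 35.4%, beside 34.2%. The changes were small. The median log2 fold change of the members was -0.08, and that of all tested genes was 0.02. In total, 67 of the 82 were below 0 (81.7%, against 47.1% of all tested genes). In the large subunit the median was -0.06, with 15 of 50 members lower and 2 higher, and in the small subunit it was -0.09, with 12 of 32 lower and 0 higher. The difference between the subunits was not tested. These values rest on the TMM scaling, which adjusts the library totals on the assumption that most genes do not change. With library totals alone the direction of the family was lost: the median of all genes moved to 0.11 and that of the members to 0.02, with 8 members lower and 8 higher. The median of the members relative to that of all genes was -0.10 on the log2 scale under both scalings. Among the libraries numbered 1 to 8 the median of the members was -0.11 (17 lower, 1 higher), and among those numbered 9 to 16 it was -0.09 (4 lower, 0 higher). The R6/1 libraries numbered 9 to 16 are all of “poor” mice. In all, 22.6% and 17.6% of the tested genes were called in these fits, so among libraries 9 to 16 the 4 of 82 members are a smaller share than that of all genes.

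The “good” and “poor” R6/1 mice were also compared separately with the wild-type mice, and the 8 wild-type mice are shared by both comparisons. In R6/1 “good” mice, 20 members were lower (24.4%, beside 12.4% of all tested genes) and 3 were higher (3.66%, beside 12.1%), with a median of -0.07. In R6/1 “poor” mice, 19 were lower (23.2%, beside 14.9%) and 1 was higher (1.22%, beside 13.5%), with a median of -0.11. When the R6/1 “poor” mice were compared with the wild-type “poor” mice alone, only Rpsa and Rps19 were lower and Rpl7l1 higher, 3 of 82 members beside 19.3% of all genes. Counted in either direction against all wild-type mice, the members were called about as often as other genes, at 28.0% beside 24.6% in “good” and 24.4% beside 28.5% in “poor” mice. These counts depended on which mice were included. They ranged from 11 to 23 in “good” mice when any mouse was left out, with 11, 14 and 12 without R6/1 “good” mouse 1, 3 or 4. In “poor” mice they ranged from 7 to 23, with 7, 9 and 8 without R6/1 “poor” mouse 1, 2 or 3. Library totals alone gave 9 lower and 7 higher in “good” mice (median 0.02) and 6 lower and 6 higher in “poor” mice (median -0.02).

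**Figure D1:**
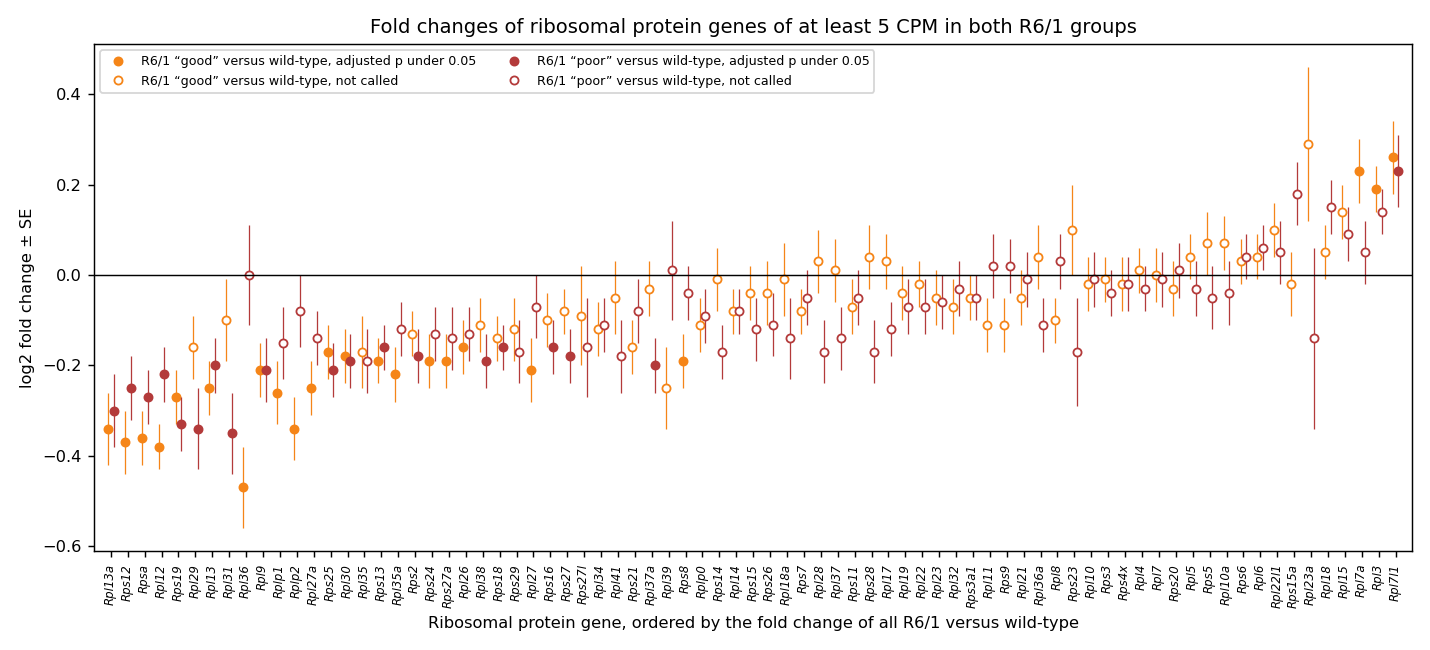
Log2 fold change ± SE (y axis) of 77 ribosomal protein genes of at least 5 CPM in R6/1 “good” (orange) and R6/1 “poor” mice (red) against the same 8 wild-type mice, ordered by the fold change of all R6/1 mice. Filled points passed an adjusted p of 0.05. Most points lie slightly below 0, and Rpl7l1 is the only filled red point above 0.

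In the small subunit, the clearest difference was that of Rpsa, which encodes the protein uS2, also known as the laminin receptor, on chromosome 9 (120127689 to 120132369, GRCm38). It stood at 623, 660, 689 and 605 CPM in wild-type “good” mice, at 667, 614, 595 and 587 in wild-type “poor” mice, at 495, 498, 485 and 481 in R6/1 “good” mice and at 537, 507, 534 and 518 in R6/1 “poor” mice. Every R6/1 mouse was below every wild-type mouse, and among the R6/1 mice all “good” mice lay below all “poor” mice. The share of all genes that separate the R6/1 groups in this way was not computed, and edgeR called no gene between these groups. Against wild-type mice, the log2 fold change was -0.31 ± 0.04 (SE) in all R6/1 mice (adjusted p = 3.4e-05), -0.36 ± 0.06 in “good” (3.8e-04) and -0.27 ± 0.06 in “poor” mice (0.00368). Within libraries 1 to 8 it was -0.37 (adjusted p = 0.00182), and within libraries 9 to 16, where all R6/1 mice are “poor” mice, it was -0.25 (0.0435).

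Rps19, which matures the 3′ end of the 18S rRNA and is the gene most often mutated in Diamond-Blackfan anaemia, was also lower without overlap. Its values were 183, 215, 199 and 192 CPM in wild-type “good” and 194, 180, 194 and 186 in wild-type “poor” mice, against 170, 168, 153 and 149 in R6/1 “good” and 161, 149, 151 and 154 in R6/1 “poor” mice. Both R6/1 groups lay between 149 and 170 CPM. This gave a log2 fold change of -0.30 ± 0.05 in all R6/1 mice (adjusted p = 7.0e-05), -0.27 ± 0.06 in “good” (0.00462) and -0.33 ± 0.06 in “poor” mice (7.5e-04), and it was -0.27 and -0.33 within libraries 1 to 8 and 9 to 16 (0.0115 and 0.0132). The R6/1 mice in libraries 9 to 16 are all “poor” mice. Near-identical copies of Rps19 took reads as well. With these added, the value was -0.27 (1.4e-04).

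Rps12, a protein at the beak of the small subunit, stood at 220, 254, 269 and 214 CPM in wild-type “good” and at 229, 248, 238 and 219 in wild-type “poor” mice. In R6/1 “good” mice it was 179, 181, 193 and 178, and in R6/1 “poor” mice 200, 176, 204 and 215. All R6/1 “good” mice were below all wild-type mice, whereas the highest “poor” mouse just overlapped with the lowest wild-type mouse. The share of all genes with the R6/1 “good” mice below all wild-type mice was not computed. The fitted log2 change was -0.37 ± 0.07 in “good” (adjusted p = 0.00101) and -0.25 ± 0.07 in “poor” mice (0.0204). In wild-type mice, Rps12 was higher in libraries 9 to 16 than in 1 to 8, by 0.15 on the log2 scale. R6/1 “poor” mouse 2, whose library lies in 1 to 8, had 176 CPM and lay close to the “good” mice. For the other “poor” mice, library number and performance cannot be told apart. Within libraries 9 to 16, the change in “poor” mice was -0.25 (0.0472). Rps12 was not called in “poor” mice against wild-type “poor” mice alone. Rps25, which is needed for initiation at several internal ribosome entry sites, changed by -0.17 ± 0.06 in “good” (0.0450) and -0.21 ± 0.06 in “poor” mice (0.0162), from 190 to 222 CPM in wild-type mice to 174 to 195 in R6/1 mice. In “poor” mice this call was lost with library totals alone (-0.11, adjusted p = 0.142), within libraries 9 to 16 and against wild-type “poor” mice alone. Rps25 shares 36.1% of its transcript with Trappc4 on the opposite strand. Rps6, the substrate of S6 kinase, remained between 314 and 371 CPM in wild-type and between 339 and 371 in R6/1 mice (log2 fold change 0.03 ± 0.04, adjusted p = 0.531). Rps27a, made as a fusion with ubiquitin, was lower in all R6/1 mice (-0.16 ± 0.05, 0.0211).

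Among the proteins of the large subunit, Rpl12, which forms the base of the stalk, had 201, 224, 224 and 200 CPM in wild-type “good” and 216, 211, 202 and 201 in wild-type “poor” mice. R6/1 “good” mice had 161, 166, 167 and 153, and R6/1 “poor” mice 173, 163, 182 and 203. Only R6/1 “poor” mouse 4 reached the wild-type range. R6/1 “poor” mouse 2, whose library lies in 1 to 8, had 163 CPM, within the range of the “good” mice. In wild-type mice, the difference between libraries 9 to 16 and 1 to 8 was 0.04 on the log2 scale. On the log2 scale, the change was -0.38 ± 0.05 in “good” (adjusted p = 1.8e-04, the smallest of the members there) and -0.22 ± 0.06 in “poor” mice (0.0180). Without mouse 4 it was -0.29 in “poor” mice (0.00354). Rpl12 was not called in “poor” mice within libraries 9 to 16 or against wild-type “poor” mice alone.

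Rpl13 stood at 253, 295, 285 and 266 CPM in wild-type “good”, at 285, 261, 283 and 263 in wild-type “poor”, at 236, 242, 222 and 221 in R6/1 “good” and at 231, 230, 232 and 260 in R6/1 “poor” mice. Again only R6/1 “poor” mouse 4 overlapped with the wild-type mice. Its log2 fold change was -0.25 ± 0.06 in “good” (adjusted p = 0.00494) and -0.20 ± 0.06 in “poor” mice (0.0207). Rpl13a, which can leave the ribosome to silence inflammatory mRNAs, changed by -0.34 ± 0.08 (0.00433) and -0.30 ± 0.08 (0.0123), at 24.5 to 32.4 CPM in wild-type and 21.1 to 27.0 in R6/1 mice. Neither Rpl13 nor Rpl13a was called in “poor” mice within libraries 9 to 16 or against wild-type “poor” mice alone. Rpl9 was the third member without overlap between the genotypes, at 412 to 513 CPM in wild-type and 360 to 410 in R6/1 mice (-0.21 ± 0.05 in all R6/1 mice, 0.00236), and was chosen after its values were seen. Such 3 of 82 members (3.66%) compare with 5.03% of all tested genes that were lower without overlap, and 0 members with 4.05% that were higher. Rpl9 was higher in wild-type libraries 9 to 16 than in 1 to 8, by 0.13 on the log2 scale. It was not called within libraries 9 to 16.

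In R6/1 “poor” mice, Rpl31 and Rpl29, surface proteins of the large subunit, were among the members with the smallest p. Rpl31 stood at 396, 358, 349 and 383 CPM in wild-type “good” mice, at 394, 324, 305 and 288 in wild-type “poor” mice, at 335, 347, 302 and 322 in R6/1 “good” mice and at 263, 293, 262 and 278 in R6/1 “poor” mice. The “poor” mice of the R6/1 line overlapped only with the lowest wild-type “poor” mouse. The fitted log2 change was -0.35 ± 0.09 in “poor” (adjusted p = 0.00802) and -0.10 ± 0.09 in “good” mice (0.428). Rpl31 was lower in wild-type libraries 9 to 16 than in 1 to 8, by -0.27 on the log2 scale, and within libraries 9 to 16 the value in “poor” mice was -0.28 (0.0430). Against wild-type “poor” mice alone it was -0.26 and not called (0.0803). Rpl29 gave -0.34 ± 0.09 in “poor” (0.0111) and -0.16 ± 0.07 in “good” mice (0.0865), and within libraries 9 to 16 it was -0.31 (0.0754). Against wild-type “poor” mice alone it was -0.32 (0.0700).

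The stalk that recruits elongation factors is built from Rplp0, Rplp1 and Rplp2. Rplp2 had 103, 124, 115 and 100 CPM in wild-type “good” and 109, 114, 104 and 112 in wild-type “poor” mice, against 79.2, 88.5, 96.8 and 83.9 in R6/1 “good” mice. In R6/1 “poor” mice it had 92.4, 96.3, 101 and 128, and this last value, of mouse 4, is the highest of all 16. Its log2 fold change was -0.34 ± 0.07 in “good” (adjusted p = 0.00207) and -0.08 ± 0.08 in “poor” mice (0.495). In wild-type mice, Rplp2 was higher in libraries 9 to 16 than in 1 to 8, by 0.13 on the log2 scale. All R6/1 “good” libraries lie in 1 to 8. Rplp1 gave -0.26 ± 0.07 in “good” (0.0195) and -0.15 ± 0.08 in “poor” mice (0.187). Rplp0 gave -0.11 ± 0.06 (0.173) and -0.09 ± 0.06 (0.338). Without R6/1 “poor” mouse 4, Rplp2 in “poor” mice was -0.19 (0.0467).

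Rpl36, another protein of the large subunit, had the largest rise from R6/1 “good” to R6/1 “poor” mice. It stood at 75.7, 76.8, 95 and 66.5 CPM in wild-type “good”, at 85.1, 81.4, 77.6 and 79.6 in wild-type “poor”, at 54.5, 57.7, 65.6 and 52.3 in R6/1 “good” and at 69.9, 69.4, 75 and 104 in R6/1 “poor” mice. Every R6/1 “good” mouse was below every other mouse, and R6/1 “poor” mouse 4 was the highest of all. The nearest values were 65.6 CPM in an R6/1 “good” mouse and 66.5 in a wild-type “good” mouse. The share of all genes with this pattern was not computed. The log2 fold change against wild-type mice was -0.47 ± 0.09 in “good” (adjusted p = 0.00106) and -0.00 ± 0.11 in “poor” mice (0.982), or -0.16 (0.190) without mouse 4. In mouse 4, the summed markers of cortical excitatory neurons were 1327 CPM, against 286 to 478 in the other 3 R6/1 “poor” mice and 251 to 1196 in wild-type mice. Their part in these values was not tested. In wild-type mice, Rpl36 was higher in libraries 9 to 16 than in 1 to 8, by 0.12 on the log2 scale. All R6/1 “good” libraries lie in 1 to 8. R6/1 “poor” mouse 2, whose library also lies there, had 69.4 CPM, above all R6/1 “good” mice.

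Higher levels were found for Rpl3, which contacts the peptidyl transferase centre, and for Rpl7l1, a paralog of Rpl7 that acts in the assembly of the large subunit. Rpl3 stood at 701, 700, 727 and 744 CPM in wild-type “good”, at 781, 701, 722 and 706 in wild-type “poor”, at 847, 887, 769 and 795 in R6/1 “good” and at 771, 825, 807 and 775 in R6/1 “poor” mice. Apart from wild-type “poor” mouse 1, all wild-type mice were below all R6/1 mice. The log2 fold change in all R6/1 mice was 0.16 ± 0.04 (adjusted p = 0.00575), with 0.19 ± 0.05 in “good” (0.0194) and 0.14 ± 0.05 in “poor” mice (0.0595). Within libraries 1 to 8 and 9 to 16 it was 0.14 in both (0.150 and 0.133), and the R6/1 mice in 9 to 16 are all “poor” mice.

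Rpl7l1 had 43.0, 47.8, 41.8 and 38.2 CPM in wild-type “good” and 37.2, 46.8, 35.9 and 39.0 in wild-type “poor” mice, against 50.1, 48.6, 49.5 and 48.9 in R6/1 “good” and 49.4, 47.1, 51.0 and 46.5 in R6/1 “poor” mice. It was narrowly spread in R6/1 mice and overlapped with the wild-type mice in 2 of the R6/1 “poor” mice. The log2 fold change was 0.25 ± 0.06 in all R6/1 mice (adjusted p = 0.00297), and it passed the threshold in both R6/1 groups (0.26 ± 0.08, 0.0232, and 0.23 ± 0.08, 0.0374). Without wild-type “good” mouse 4, wild-type “poor” mouse 3 or 4, or R6/1 “poor” mouse 1 or 3, Rpl7l1 lost its call in “poor” mice. Within libraries 9 to 16 it was not called either. Against wild-type “poor” mice alone, the value in “poor” mice was 0.29 (0.0406). The call in “good” mice was lost without R6/1 “good” mouse 1 and with wild-type “good” mice alone as controls. Rpl7a, a neighbour of the exit tunnel, passed in “good” mice (0.23 ± 0.07, 0.0253) but not in “poor” mice (0.05 ± 0.07, 0.600). Within libraries 1 to 8, which hold all the “good” mice, Rpl7a gave 0.10 (0.381).

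**Figure D2:**
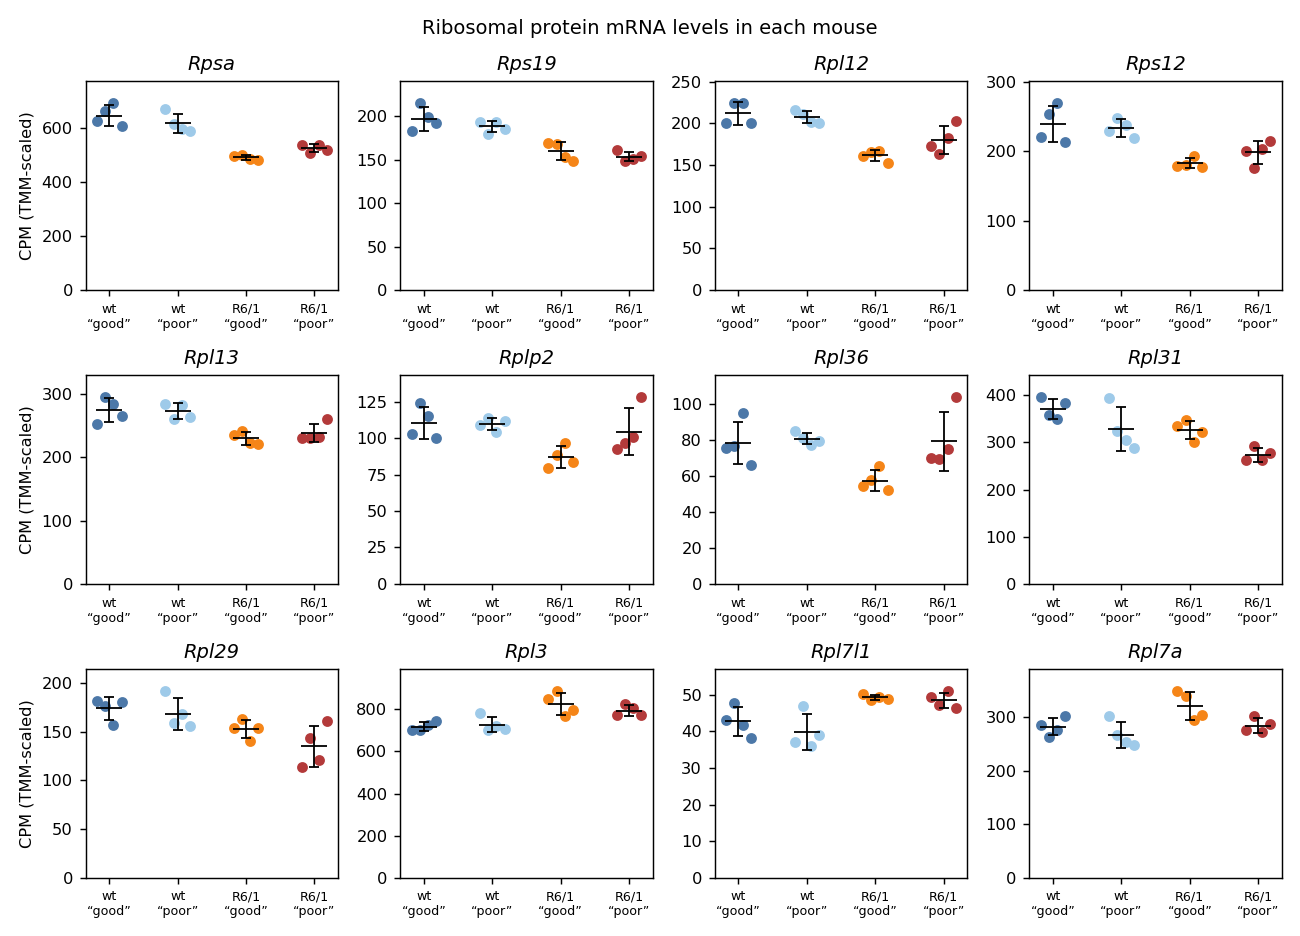
TMM-scaled CPM (y axis, from 0) of 12 ribosomal protein genes in each mouse of the 4 groups. Points are mice and bars give the mean and SD of 4 mice. Rpsa and Rps19 do not overlap between genotypes, and in R6/1 “poor” mice the highest point of Rpl12, Rpl13, Rplp2 and Rpl36 is mouse 4.

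Mammals have several ribosomal protein genes with a related second gene. Of 9 such paralogs 6 passed the limit for testing, with Rpl7l1 higher and Rpl3l lower in all R6/1 mice. Rpl3l was near the limit of detection, at 0.454 to 0.876 CPM in wild-type and 0.145 to 0.614 in R6/1 mice (-0.86 ± 0.26, adjusted p = 0.0166). Rpl22l1 ranged from 54.4 to 62.4 CPM in wild-type and from 54.0 to 66.9 in R6/1 mice (0.08 ± 0.05, 0.285), and Rps27l gave -0.13 ± 0.08 (0.255). Rpl36al gave 0.51 ± 0.30 (0.198) at under 1 CPM. Of the 8 parents of these paralogs, Rpl3 was higher and Rps27 lower (-0.13 ± 0.04, 0.0303). The other 6 were not called: Rpl7 (-0.01 ± 0.04, 0.925), Rpl10 (-0.02 ± 0.04, 0.822), Rpl22 (-0.05 ± 0.04, 0.447), Rpl36a (-0.03 ± 0.06, 0.703), Rpl39 (-0.11 ± 0.09, 0.355) and Rps4x, the X-linked small subunit protein (-0.02 ± 0.04, 0.798). Rpl7 and Rpl7l1 thus had values of -0.01 and 0.25 in the same mice, and the difference between them was not tested.

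Of 20 genes known from Diamond-Blackfan anaemia, an anaemia of insufficient ribosomes, 8 were lower and 0 higher in all R6/1 mice (median -0.08). Of all tested genes 17.0% were lower and 17.2% higher. Of the 82 members of the family 27 were lower (32.9%), with the same median of -0.08. With library totals alone 1 of the 20 genes was lower and 2 were higher, with a median of 0.01. Of 7 members that bind Mdm2, 1, Rpl26, was lower (-0.15 ± 0.04, adjusted p = 0.0123). Rpl5 and Rpl11, which bind Mdm2 together with the 5S rRNA, gave 0.01 ± 0.04 (0.920) and -0.04 ± 0.05 (0.573). Of 20 genes of p53 and its targets, 3 were higher and 3 lower (median 0.00), which is near the share of all tested genes.

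**Figure D3:**
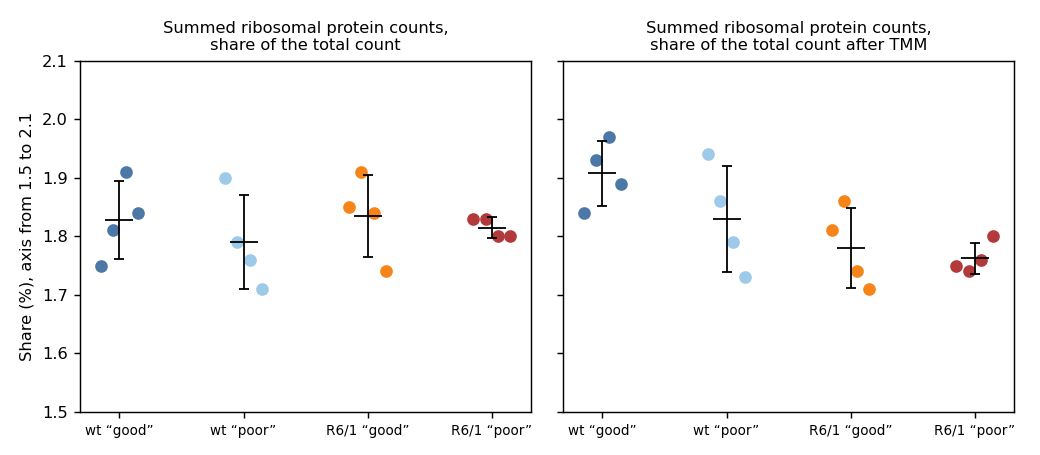
Share of ribosomal protein counts (y axis, in %, from 1.5 to 2.1) in the total count (left) and in the total count after TMM scaling (right), with the mean and SD of 4 mice per group. On the left the genotypes overlap fully, and on the right most R6/1 mice lie below most wild-type mice.

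The summed counts of the 82 members put the small changes in proportion. Their share of all counts was 1.83% ± 0.0682 (SD, n = 4) in wild-type “good”, 1.79% ± 0.0807 in wild-type “poor”, 1.83% ± 0.0721 in R6/1 “good” and 1.81% ± 0.0171 in R6/1 “poor” mice. All 4 groups overlapped. As a share of the TMM-scaled total it was 1.91% ± 0.0572, 1.83% ± 0.0905, 1.78% ± 0.0684 and 1.76% ± 0.0245, so the mean of the 8 R6/1 mice was 1.77% and that of the 8 wild-type mice 1.87%. The TMM factors lay between 0.938 and 0.989 in wild-type and between 1.00 and 1.06 in R6/1 mice, without overlap. The family was thus lower in R6/1 mice relative to the TMM-scaled total, but not as a share of all counts.

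Comparing R6/1 “poor” with R6/1 “good” mice, edgeR called 0 of the 82 members and 0 of all 19363 genes (0%). At an unadjusted p under 0.05, 9 members were higher (11%, beside 8.32% of all genes) and 8 lower (9.76%, beside 7.17%). DESeq2 called 1 member higher, Rpl36 (0.48 ± 0.15, adjusted p = 0.0455), and 1 lower, Rpl31 (-0.24 ± 0.07, 0.0257), beside 1.57% and 0.891% of the genes it tested. The largest rises were those of Rpl36 (0.48 ± 0.14, adjusted p = 0.248 by edgeR), Rplp2 (0.27 ± 0.11, 0.282) and Rpl39 (0.27 ± 0.09, 0.255). The largest falls were those of Rpl3l (-0.48 ± 0.46, 0.631), Rpl23a (-0.42 ± 0.16, 0.281) and Rpl24 (-0.39 ± 0.22, 0.406). The median of the members was -0.00, as was that of all genes. Rpl39 lines the exit tunnel of the nascent protein, and Rpl23a sits at its opening.

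These values moved with the library number. Without R6/1 “poor” mouse 2, whose library is number 6, edgeR called 3 members, Rpl23a (-0.62 ± 0.07, adjusted p = 0.0168), Rpl39 (0.36 ± 0.05, 0.0387) and Rps23 (-0.36 ± 0.06, 0.0451), beside 0.315% of all genes, and all remaining “poor” libraries are then numbered 9 to 16 and all “good” libraries 1 to 8. Within libraries 1 to 8, the same mouse 2 against the 4 “good” mice gave Rpl23a 0.06 and Rpl39 -0.03 (adjusted p = 1.00 for both), with the lone mouse assumed to vary like the others. A comparison within libraries 9 to 16 is not possible, since no “good” mouse is there. For the other 3 “poor” mice the library number and the performance cannot be told apart.

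Over all 16 libraries, Rpl23a ranged from 85.1 to 105 CPM in libraries 1 to 8 and from 57.9 to 75.7 in libraries 9 to 16. Rps23, a protein of the decoding centre, ranged from 98.3 to 120 and from 73.7 to 91.1. In the opposite direction, Rpl39 ranged from 77.3 to 84.7 in libraries 1 to 8 and from 92.3 to 115 in libraries 9 to 16, and Rpl11 from 209 to 226 and from 230 to 261. These 4 members separated the libraries without overlap whatever the genotype, and R6/1 “poor” mouse 2 had 100 CPM of Rpl23a, against 61.4, 63.4 and 62.1 in the other R6/1 “poor” mice. Of all tested genes, 0.563% were lower and 0.485% higher in libraries 9 to 16 without overlap. In wild-type mice alone, the difference between libraries 9 to 16 and 1 to 8 was -0.65 for Rpl23a, -0.39 for Rps23, 0.34 for Rpl39 and 0.16 for Rpl11 on the log2 scale. These genes were picked for this split, so the values are a description. Rpl23a shares 55.4% of its transcript with Tlcd1 on the opposite strand, and the strand setting of the counting is not stated.

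**Figure D4:**
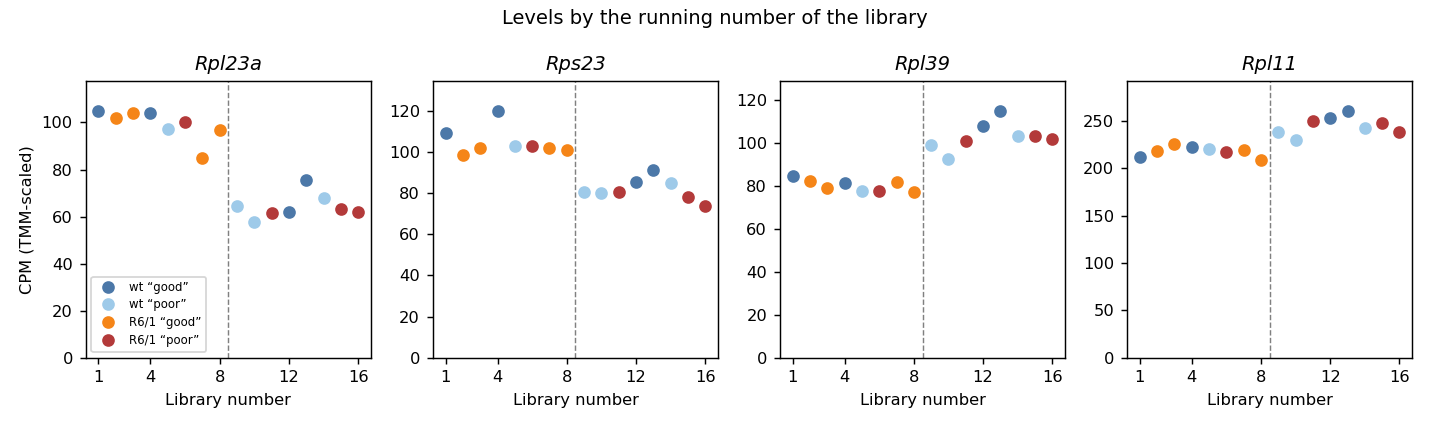
TMM-scaled CPM (y axis, from 0) of 4 ribosomal protein genes against the running number of the library (x axis), coloured by group, with a dashed line between libraries 8 and 9. Rpl23a and Rps23 are lower and Rpl39 and Rpl11 higher to the right of the line in every group present there, and the R6/1 “poor” library number 6 sits with libraries 1 to 8.

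Wild-type “poor” and “good” mice did not differ in any member by edgeR (0 of 82, and 0% of all genes), with 0 higher (beside 1.03%) and 1 lower (beside 1.41%) at an unadjusted p under 0.05 and 0 by DESeq2. The values leaned to 1 side. In all, 74 of 82 members had a negative log2 fold change in “poor” mice (90.2%, against 49.6% of all genes), with a median of -0.06. Other groups leaned likewise, with 73 of 77 mitochondrial ribosomal proteins (median -0.11), 83 of 90 subunits of oxidative phosphorylation (-0.11) and 42 of 49 of the proteasome (-0.06) below 0, and the 206 other genes of up to 800 bases and at least 30 CPM had a median of -0.10. The direction depended on the libraries: within 1 to 8, where wild-type “poor” mouse 1 is the only “poor” mouse, the median was 0.06 and 22 of 82 were negative, and within 9 to 16 it was -0.13 and 81 were negative. The largest values were those of Rpl3l (-0.34 ± 0.29), Rpl24 (-0.30 ± 0.19) and Rpl23a (-0.27 ± 0.20) on the lower side and Rpl36al (0.05 ± 0.47), Rpl36 (0.04 ± 0.10) and Rpl3 (0.02 ± 0.07) on the higher side, each with an adjusted p of 1.00.

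The interaction of genotype and performance, that is the difference between the “poor” against “good” change in R6/1 and in wild-type mice, was called for 0 of 82 members (0% of all genes). At an unadjusted p under 0.05 there was 1 higher (beside 2.42% of all genes) and 0 lower (beside 3.36%), and DESeq2 called 0 of the members, beside 0.00517% of the genes it tested, all lower. The smallest adjusted p was 0.826, and Rpl36 gave 0.42 ± 0.17 (0.826). The median of the members was 0.04, against -0.01 over all genes.

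Within the groups, most pairs of members varied in the same direction. The same value for other genes was not computed. After the mean of each group was subtracted, the 3003 pairs among the 78 members of at least 5 CPM had a median correlation of 0.40 over the 16 mice, and 79.8% were positive, from -0.91 to 0.97. Points of this kind share the library, its scaling and its depth, so no test is given. The first principal component held 43.6% of the variance. Its loadings had both signs, with Rpl23a (-0.50) and Rps23 (-0.28) against Rpl39 (0.30) and Rps12 (0.15), so it set members against each other. In the groups with libraries on both sides, its score was negative in the 4 libraries numbered 1 to 8 (-0.63, -0.73 and -0.81 in wild-type mice and -1.01 in R6/1 “poor” mouse 2). The score was positive in all 8 libraries numbered 9 to 16 (0.24 to 0.73). Rpl23a had the largest spread within groups (SD 0.28 on the log2 scale) and Rpl36 the next (0.17), whereas Rps3 and Rpl4 had the smallest (0.04).

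Ribosomal protein genes have many pseudogenes, and 599 near-identical copies (at least 95% identity over at least 150 bases and 80% of the copy) were found for 79 of the 85 genes. Reads of these cannot be assigned with certainty. For 58 members over 99% of the joint counts were on the gene itself, and for 17 under 95%. Rps23 held only 25.2% of the joint counts, Rpl37 57.3% beside the copy Rpl37rt, Rps19 64.2% and Rpl22l1 65.3%. Adding the copies to their parents changed the number of called members in all R6/1 mice from 29 to 28. Rplp1 lost its call (adjusted p = 0.0593), whereas Rpl13a gave -0.40 instead of -0.32. In the comparison of R6/1 “poor” with “good” mice, Rps23 moved from -0.25 to -0.14.

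**Figure D5:**
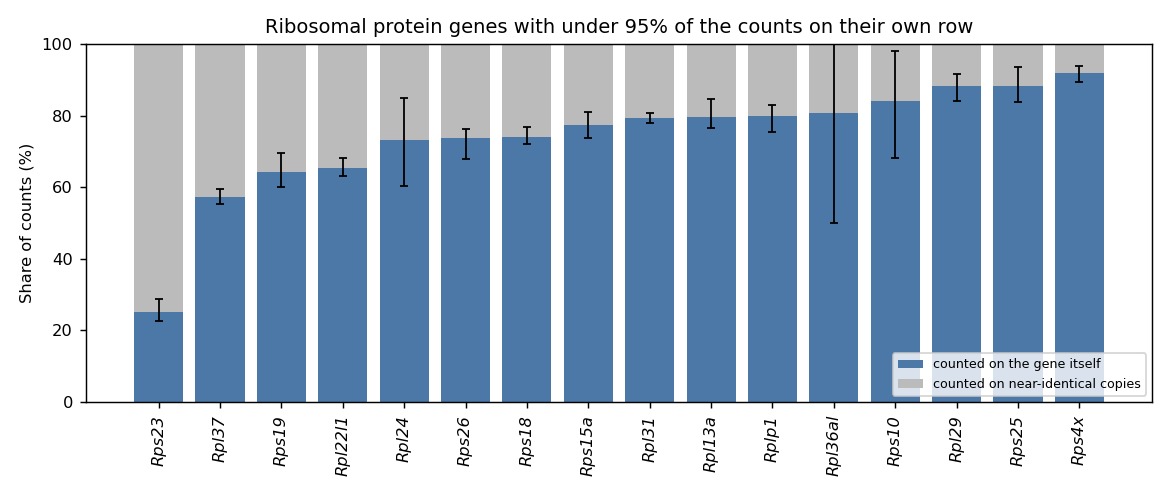
Share of the joint counts (y axis, in %, from 0 to 100) that fell on the gene itself (blue) and on its near-identical copies (grey), for 16 members with under 95% on the gene. Error bars give the lowest and highest library. Rps23 has the smallest share, at 25.2%.

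Most of these mRNAs are short, and length went along with the size of the change. In all R6/1 mice, the median log2 fold change was -0.13 for the 13 members of up to 500 bases and -0.11 for the next 30, of up to 800 bases. It was -0.04 for the 33 longer members. Other genes of at least 30 CPM had medians of -0.11 up to 500 bases (39 genes), -0.01 for the next 167 up to 800 bases and 0.02 for the 6763 longer ones. Members and other genes were therefore close in the shortest class and lay apart in the next. The part of transcript length in the result was not tested.

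Other genes of the translation machinery were counted in the same way, and their counts are to be read beside the 17.2% of all tested genes that were higher and the 17.0% that were lower. Of the 97 tested genes of rRNA processing and ribosome assembly, 31 were higher and 7 lower in all R6/1 mice (median 0.11). Among these, fibrillarin (Fbl), which methylates rRNA, rose by 0.41 ± 0.06 on the log2 scale (adjusted p = 3.7e-05), Rrp15 by 0.43 ± 0.07 (1.1e-04), the kinase Riok1 by 0.31 ± 0.05 (4.7e-05), and Tsr2, the chaperone of Rps26, by 0.26 ± 0.05 (3.6e-04). Of 13 genes of RNA polymerase I transcription, 3 were higher and 2 lower, with its subunit Polr1a at 0.35 ± 0.06 (4.8e-04) and the rDNA transcription factor Ubtf at -0.52 ± 0.05 (1.5e-06). Of 38 translation initiation factors 10 were higher and 1 lower (median 0.07), with Eif6, which keeps the subunits apart, at 0.33 ± 0.06 (3.1e-04). Of 9 elongation factors 1 was higher, Eef1a1 (0.26 ± 0.05, 6.8e-04).

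The comparison with other TOP mRNAs is closest to the members by sequence. Of 25 such genes outside the ribosome, 10 were higher and 5 lower in all R6/1 mice (median 0.01). Tpt1, the translationally controlled tumour protein, changed by -0.31 ± 0.06 (adjusted p = 5.0e-04), vimentin (Vim) by 0.40 ± 0.07 (4.4e-04) and the RNA host gene Zfas1 by 0.38 ± 0.06 (8.2e-05). Of the 3 cytosolic ribosome genes with other names, Fau, the fusion gene of Rps30, was lower (-0.16 ± 0.06, 0.0321). Of 77 mitochondrial ribosomal proteins, 10 were higher and 3 lower (median 0.02), with Mrpl39 at 0.49 ± 0.06 (4.9e-06). Of 38 genes of mTORC1 and of TOP mRNA control, 11 were higher and 6 lower (median 0.01). With library totals alone the medians were 0.20 for ribosome assembly (66 higher, 1 lower), 0.17 for initiation factors (25 higher, 0 lower), 0.08 for elongation factors (3 higher, 0 lower) and 0.10 for the other TOP mRNAs (11 higher, 2 lower), beside 0.11 for all genes.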

How the data were processed

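The deposited table holds raw counts, whole numbers per gene that the authors did not normalize. Stranded mRNA libraries were made from single mice, and per the study methods and the submitters' processing notes paired-end reads were aligned to GRCm38 by TopHat 1.0.1, with Bowtie and CASAVA also named. Which program counted the reads, on which strand and with which annotation is not given in the sources used here. Symbols, positions and transcript lengths come from GENCODE M21. The 13 mitochondrially encoded mRNAs are at 0 in every library.

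Counts were tested with the quasi-likelihood test of edgeR 4.0.16 (robust dispersions, TMM factors, R 4.3.3) on the 19363 genes that reached 10 counts in 4 or more of 16 libraries, with Benjamini-Hochberg adjustment over all of them and a threshold of 0.05. Each SE is the log2 fold change divided by the root of the F statistic. Levels are CPM on TMM-scaled totals. Totals were 16155356 to 24897354 counts per library, and counting error weighs most on Rpl3l, Rpl36al, Rpl24 and Rps10, the members under 5 CPM. Near-identical copies were found with blastn 2.17.0 among GENCODE transcripts. DESeq2 1.42.0 served as an alternative, and figures were drawn with matplotlib 3.10.9. The edgeR test of R6/1 “good” against all wild-type mice was tried on simulated counts. The other comparisons and DESeq2 were not.

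The members and gene lists were chosen with earlier results of these data known. Members named are the called ones with the 6 smallest p per direction and genotype comparison, the 3 largest rises and falls of each performance comparison, the stalk proteins, paralogs and their parents, Rpsa, Rps6, Rps27a, Rpl5, Rpl11 and Rps19, and the 3 highest and lowest per length. Of each other list, up to 4 called genes with the smallest p could be named. Alternatives were DESeq2, other scalings and count filters, a block for replicate number, a joint fit of all groups, controls of the same performance, the library number and leaving out each mouse. The values of 1 member are not reported here, although it is included in the counts and medians. The addition of copies to their parents was chosen after seeing the data. Replicate numbers of the groups did not pair the mice: over 24 pairs of same-numbered mice, deviations correlated by -0.35 to 0.23, and 5 were over 0.1.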

Additional observations from a re-analysis of the deposited data

Results flagged for a closer look

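In groups of 4 mice, a value was flagged when its gap to the nearest mouse was large for the range of the group. This was examined for 35 members and the summed share in the 4 groups, 144 groups of values in all. Chance flags about 1 in 20, or 7.2 of these, and 5 were found. R6/1 “poor” mouse 4 was high for Rpl36 (104 CPM, against 69.4 to 75 in the other 3) and for Rpl13 (260, against 230 to 232). R6/1 “poor” mouse 2, the only mouse of its group with a library numbered 1 to 8, was high for Rpl23a (100 CPM, against 61.4 to 63.4) and low for Rpl39 (77.8, against 101 to 103). Wild-type “poor” mouse 1, also the only mouse of its group in libraries 1 to 8, was high for Rplp0 (264 CPM, against 227 to 233).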

How the results depend on the processing

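Among the results that summarise a comparison, 261 values under an alternative stayed within the limits and 26 did not. The limits were a fixed ratio for counts of calls and the largest SD within a group for medians and shares. With library totals alone, the calls were 12 in R6/1 “poor” mice and 16 in all R6/1 mice (beside 34.7% and 41.1% of all genes), with medians of 0.02 in “good” mice, -0.02 in “poor” mice and 0.02 in all. Without a filter on low counts, 14, 10 and 17 members were called in “good”, “poor” and all R6/1 mice, beside 9.31%, 11.3% and 14.1% of all genes. The library number as a covariate gave 14 in “good” mice (beside 20.5%). Within libraries 1 to 8 there were 15 calls in “good” and 18 in all R6/1 mice. The fit of R6/1 “poor” mice there holds only 1 such mouse, so its calls are not given. Libraries 9 to 16 hold no R6/1 “good” mouse, so the same fit, with 4 calls, stands for “poor” and for all R6/1 mice. These fits hold fewer mice, and called 18.6%, 22.6% and 17.6% of all genes. Wild-type “good” mice alone as controls gave 12 in “good” mice (beside 13.9%), and wild-type “poor” mice alone gave 3 in “poor” mice (beside 19.3%). DESeq2 called 2 members between R6/1 “poor” and “good” mice. Within libraries 1 to 8 the median was 0.06 between wild-type groups and -0.09 for the interaction.

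Leaving out 1 mouse gave 11 to 23 calls in “good”, 7 to 23 in “poor”, 25 to 31 in all R6/1 mice and 0 to 3 between R6/1 groups. Of the values of single genes, 453 kept their direction and side of the threshold, 36 lost their call, 3 gained one and 10 changed sign. Of the fits that left out 1 mouse, only the lowest and the highest value of each gene are counted here. Calls lost in the other such fits are not included. Between R6/1 “poor” and “good” mice, Rpl23a was 0.06 and Rpl39 -0.03 with the library number as a covariate and likewise within libraries 1 to 8. Between wild-type groups, Rpl3 was -0.01 within libraries 9 to 16 and -0.01 to 0.04 with 1 mouse left out, Rpl36 was -0.11 within 9 to 16 and -0.03 to 0.15, and Rpl36al was -0.35 within 1 to 8 and -0.20 to 0.32. Beyond the smaller number of mice, the cause was not tested.

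The replicate number as a block called 23 members in “good” mice, 15 in “poor” mice (all of them called without it) and 27 in all R6/1 mice, and 0 in the other 3 comparisons. Since no “good” R6/1 mouse has a library numbered 9 to 16, 3 comparisons could not be fitted there. Rpl3l and Rpl36al, at under 1 CPM, are limited by depth.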
